A study of Homo sapiens with 6 samples.

Results

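The RNA levels of 10 genes of ADP-ribosylation were followed in MDA-MB-231 cells depleted of Sam68. These are the PARP enzymes PARP1, PARP2, PARP3, PARP4, PARP8, PARP10, PARP12, PARP16 and TNKS, and PARG, the enzyme that degrades the polymer. They were chosen by gene symbol in the deposited table, and all 10 were found among its 74852 loci. MDA-MB-231 is a human cell line of the triple-negative breast cancer (TNBC) type. Cells of the 3 si-CTRL libraries had received a non-targeting control siRNA pool, and cells of the 3 si-SAM68 libraries a mix of 4 siRNAs that target SAM68, so that both groups had gone through transfection. The sample labels place the harvest 24 h after the second of 2 transfections, whereas the methods of the paper give 48 h after transfection. Depletion by siRNA is transient and partial, the cells are of 1 line, and no source used here says whether the libraries of a group came from separate cultures, so that p-values measure the spread between these libraries.

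ADP-ribosylation is the transfer of ADP-ribose from NAD+ onto proteins. PARP1 and PARP2 bind broken DNA and build chains of poly(ADP-ribose), PAR, which recruit repair factors, and the tankyrases build PAR on proteins of the Wnt pathway and of telomeres. Most other members of the family attach single ADP-ribose units. PARG cuts the chains, so that PAR is short-lived. Inhibitors of PARP1 and PARP2 are used against breast tumours that lack BRCA1 or BRCA2. Sam68, encoded by KHDRBS1, is an RNA-binding protein best known as a splicing regulator, and it has also been linked to PAR synthesis after DNA damage.

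The libraries held between 52625492 and 82568487 reads on the annotated loci. Values are normalized read counts, which are the reads on a locus divided by the size factor of the library. KHDRBS1 measured 15660, 14483 and 14737 in si-CTRL and 583, 602 and 670 in si-SAM68 (log2 fold change −4.60, SE 0.083), so that the targeted RNA was low in every library labelled as depleted. In si-SAM68 replicate 2, 15.1% of the reads lay on a ribosomal RNA locus, against 1.83 to 3.17% in the other 5 libraries. The mesenchymal markers VIM, CD44, AXL and ZEB1 and the keratins KRT8 and KRT18 were expressed in all libraries. Of 6 markers of other cells (ESR1, PGR, CDH1, EPCAM, PTPRC, PECAM1), 1 reached the minimum mean of 10 used for testing. ZEB1 was lower (log2 fold change −0.63) and KRT8 and KRT18 were higher (0.31 and 0.35) in si-SAM68, each with an adjusted p under 0.05 by limma. The mesenchymal markers did not share a direction, since the log2 fold changes of AXL (0.27, groups not overlapping), CD44 (0.17) and VIM (−0.14), none with such a p, stood beside that of ZEB1. The part of these differences in the results for the PARP genes was not tested.

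The 4 siRNAs of the SAM68 pool are shown because short matches to an siRNA can lower other RNAs. The sense strands read as follows, 5′ to 3′, with capitals marking the 7 bases that pair with guide positions 2 to 8, the seed.
siRNA 1: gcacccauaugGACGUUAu
siRNA 2: gaaagagcgagUGCUGAUa
siRNA 3: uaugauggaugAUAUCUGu
siRNA 4: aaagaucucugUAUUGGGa
Over its whole length each siRNA matched transcripts of KHDRBS1 and of no other gene in GENCODE 29. A seed match in the longest 3′UTR was present in 5 of the 10 genes and in 3908 of 11976 tested genes with a 3′UTR (32.6%). PARP1, PARP8 and PARP16 each held 1 match to siRNA 2, PARP12 held 1 to siRNA 4, and TNKS held 1 each to siRNAs 3 and 4. The sites of the first 4 genes are given with 11 bases on either side, the match in capitals.
PARP1 3′UTR (chromosome 1): ggccgctaagtTGCTGATgggtagtacct
PARP8 3′UTR (chromosome 5): aaactgttttgTGCTGATatttttatact
PARP12 3′UTR (chromosome 7): gcatcccagacTATTGGGactcctctgcc
PARP16 3′UTR (chromosome 15): aaattaccaacTGCTGATtacagctgaaa
No seed match was found in the 3′UTRs of PARG (2960 bases), PARP2, PARP3, PARP4 and PARP10. A match is a description of the sequence only, and whether any of these sites is used was not tested.

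The question asked of these genes was whether their RNA changed upon depletion of Sam68. PARG, counted on a locus joined with its pseudogene PARGP1, was lower in si-SAM68, at 77.5% of its si-CTRL mean. It was the only gene of the 10 with an adjusted p under 0.05. PARP4 and PARP8 were higher in every si-SAM68 library than in every si-CTRL library, at 115% and 123% of the si-CTRL mean, but did not pass that threshold. In bulk RNA, less RNA per cell and fewer cells expressing a gene cannot be told apart. The other 7 genes lay between 96.0% and 108% of their si-CTRL means, with overlapping groups. All 10 passed the minimum mean of 10. With the cut-offs used in the paper, a 1.5-fold change together with an unadjusted p of at most 0.05, 0 of 10 genes were called, against 7.67% of all 18849 loci tested. The test (limma) and the set of loci are those used here and not those of the paper, so that 7.67% is not its rate. By an adjusted p under 0.05, 1 of 10 was called, beside 10.7% of all loci (6.23% lower and 4.47% higher). The groups did not overlap in 3 of 10 genes, beside 33.9% of all loci, and an unadjusted p under 0.05 was reached by 3 of 10, beside 27% of all loci. The shares of the 10 genes by adjusted p, by unadjusted p and by overlap are thus close to those of all loci. Of the 10 genes, 6 had a positive and 4 a negative log2 fold change, with a median of 0.03, and the median of all loci was 0.005.

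**Figure D1:**
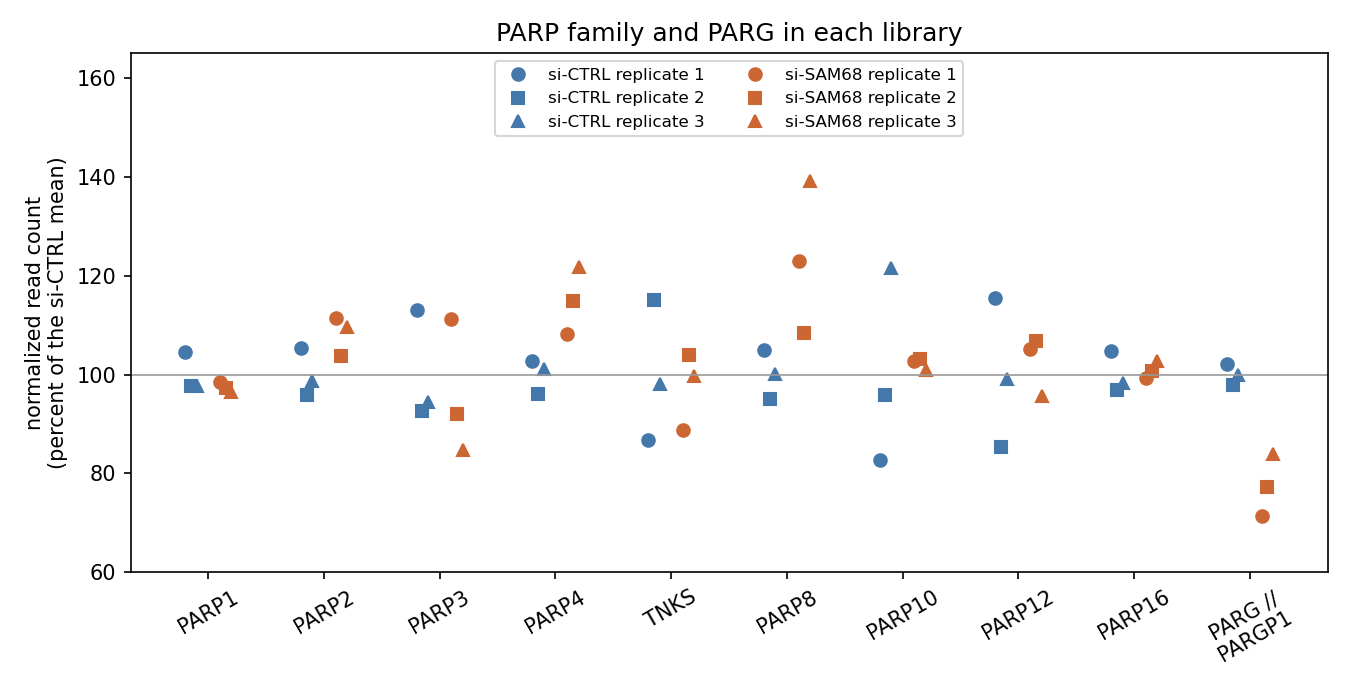
Normalized read count of the 10 genes in each of the 6 libraries, as percent of the si-CTRL mean of the gene (y axis, not starting at 0); colours give the group and marker shapes the replicate number. The 3 si-SAM68 libraries lie below all si-CTRL libraries for PARG (locus PARG // PARGP1) and above them for PARP4 and PARP8, while the groups overlap for the other 7 genes.

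Levels can be compared between genes only per length, and were expressed as normalized reads per kilobase of merged exons. PARP1 was the most abundant, with a mean si-CTRL level of 2376 ± 94.6 (SD, n = 3). PARP4 (1613 ± 56.3) and PARP2 (1553 ± 76.9) followed, and their si-CTRL libraries overlapped. PARP3 reached 706 ± 80.1 and PARP16 426 ± 17.5. PARG, counted together with its pseudogene, reached 257 ± 5.31 without and 199.6 ± 16.1 with depletion. PARP10 (202 ± 40.0) and PARP12 (146 ± 22.0) overlapped in si-CTRL. TNKS (43.0 ± 6.15) and PARP8 (23.2 ± 1.15) were the lowest of the 10. In si-SAM68 the order was the same except for PARG, which lay among the values of PARP10 (207 ± 2.44), and the libraries of PARP4 and PARP2 no longer overlapped. The annotation used for length is GENCODE 29 and not the one used for counting, so that the levels are approximate.

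**Figure D2:**
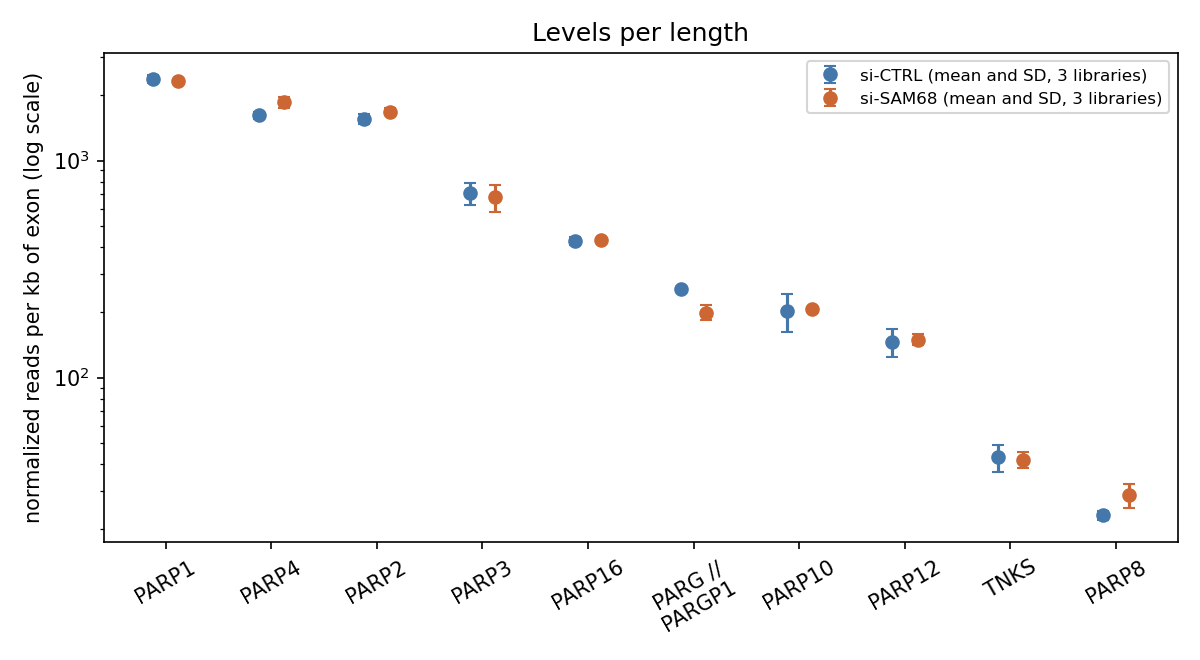
Normalized reads per kilobase of merged exons (log y axis) of the 10 genes in order of their level in si-CTRL; points are means and bars SD over 3 libraries. The levels run from 2376 for PARP1 down to 23.2 for PARP8 in si-CTRL.

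PARP1 (chr1:226548393-226595801, hg19) is the main PAR-forming enzyme at DNA breaks. Its normalized read counts were 17815, 16634 and 16648 in si-CTRL and 16771, 16572 and 16432 in si-SAM68. The groups overlapped, and the log2 fold change of −0.04 had a 95% interval of −0.19 to 0.12 (limma, adjusted p = 0.770). The interval corresponds to 87.7 to 108% of the si-CTRL level, so that a change as large as 1.5-fold lay outside it.

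PARP2 (chr14:20811773-20826062), the enzyme closest to PARP1 in its role, measured 6708, 6094 and 6278 in si-CTRL and 7085, 6602 and 6972 in si-SAM68. Replicate 2 of si-SAM68 lay below the highest si-CTRL library, and the log2 fold change was 0.12 (95% interval −0.05 to 0.28, adjusted p = 0.348). The ratio of PARP2 to PARP1 counts within a library, read here only for its change between groups, was 0.377, 0.366 and 0.377 in si-CTRL and 0.422, 0.398 and 0.424 in si-SAM68. The ratio did not overlap between the groups, with an exact permutation p of 0.1 (two-sided), the smallest that 3 against 3 libraries can give. Neither gene alone lay apart between the groups. Single loci did so in 33.9% of all loci tested, and no such share was computed for ratios.

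The RefSeq start of PARP2 lies 228 bases from that of RPPH1, the RNA of ribonuclease P, on the opposite strand. RPPH1 measured 42.5, 76.5 and 111 in si-CTRL and 120, 811 and 96.1 in si-SAM68, and the library at 811 was the one with the high ribosomal RNA share. PARP2 in that library (6602) was the lowest of the si-SAM68 group and lay above 2 of the 3 si-CTRL libraries. The PARP2 locus overlapped no other tested locus, RPPH1 included, and any share of reads between them was not tested.

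PARP3 (chr3:51976321-51982881), which acts at double-stranded DNA breaks, measured 2336, 1912 and 1950 in si-CTRL and 2297, 1903 and 1750 in si-SAM68. Replicate 1 was the highest library in both groups, and the groups overlapped (log2 fold change −0.06, 95% interval −0.33 to 0.20, adjusted p = 0.779). RRP9, a ribosomal RNA processing factor that starts 422 bases away on the opposite strand, was lower in every si-SAM68 library, with 2925, 3091 and 2921 against 2733, 2620 and 2613 (log2 fold change −0.17, adjusted p = 0.183).

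PARP4 (chr13:24995070-25086948) is the PARP of the vault particle, a large ribonucleoprotein of the cytoplasm. It measured 10070, 9418 and 9924 in si-CTRL and 10602, 11270 and 11945 in si-SAM68. All si-SAM68 values lay above all si-CTRL values. The log2 fold change was 0.20 (SE 0.075, 95% interval 0.03 to 0.37), and with adjustment over all loci p was 0.120. Without si-CTRL replicate 1 the adjusted p was 0.0487, so that its side of the threshold changed in that fit. The loci called in that fit also rose, from 2017 to 2839.

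TNKS (tankyrase, chromosome 8) builds PAR on axin and on telomere proteins. It measured 530, 703 and 599 in si-CTRL and 542, 635 and 609 in si-SAM68, and replicate 1 was the lowest library of each group. The log2 fold change was −0.03 (95% interval −0.31 to 0.25, adjusted p = 0.904). It was positive (0.0020) after quantile normalization, and no direction is given for TNKS.

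TNKS2, the paralog of TNKS, is not among the 10 genes and was named by rule from the rest of the family. It measured 6425, 7536 and 7416 in si-CTRL and 8292, 9184 and 9058 in si-SAM68, without overlap (log2 fold change 0.31, SE 0.086, adjusted p = 0.0447). The call of TNKS2 held in 1 of 6 fits that left out a library, with log2 fold changes from 0.24 to 0.36, and was lost without a minimum mean (adjusted p = 0.0702) and with eBayes without trend (0.126). The ratio of TNKS2 to TNKS counts was 12.1, 10.7 and 12.4 in si-CTRL and 15.3, 14.5 and 14.9 in si-SAM68. The ratio was higher in every si-SAM68 library (exact permutation p = 0.1, two-sided, the smallest possible). TNKS2 was named because its groups did not overlap in these same data, so that the ratio is no separate support.

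PARP8 (chr5:49961728-50142356) is a mono-ADP-ribosylating enzyme and was the least abundant of the 10. It measured 245, 222 and 234 in si-CTRL and 287, 253 and 325 in si-SAM68. The groups did not overlap, but the si-SAM68 libraries spread over a wider range. The log2 fold change was 0.30 (SE 0.131, 95% interval 0.005 to 0.59) and the adjusted p was 0.179.

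PARP10 (chromosome 8), a mono-ADP-ribosylating enzyme found as a partner of MYC, measured 1010, 1171 and 1484 in si-CTRL and 1255, 1261 and 1233 in si-SAM68. Its si-CTRL libraries took in the whole si-SAM68 range (log2 fold change 0.05, 95% interval −0.24 to 0.34, adjusted p = 0.840).

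PARP12 (chr7:139723545-139763521) is an interferon-induced enzyme that acts on membranes and on viral replication. It measured 1060, 784 and 909 in si-CTRL and 965, 980 and 878 in si-SAM68. The groups overlapped (log2 fold change 0.05, 95% interval −0.22 to 0.31, adjusted p = 0.845).

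PARP16 (chr15:65550434-65579181), anchored in the membrane of the endoplasmic reticulum, measured 1655, 1532 and 1555 in si-CTRL and 1570, 1592 and 1624 in si-SAM68. Its log2 fold change was the nearest to 0 of the 10, at 0.01 (95% interval −0.16 to 0.19, adjusted p = 0.933).

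The log2 fold changes of PARP3, PARP10, PARP12, PARP16 and TNKS changed sign when a single library was left out, and no direction is given for these genes.

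**Figure D3:**
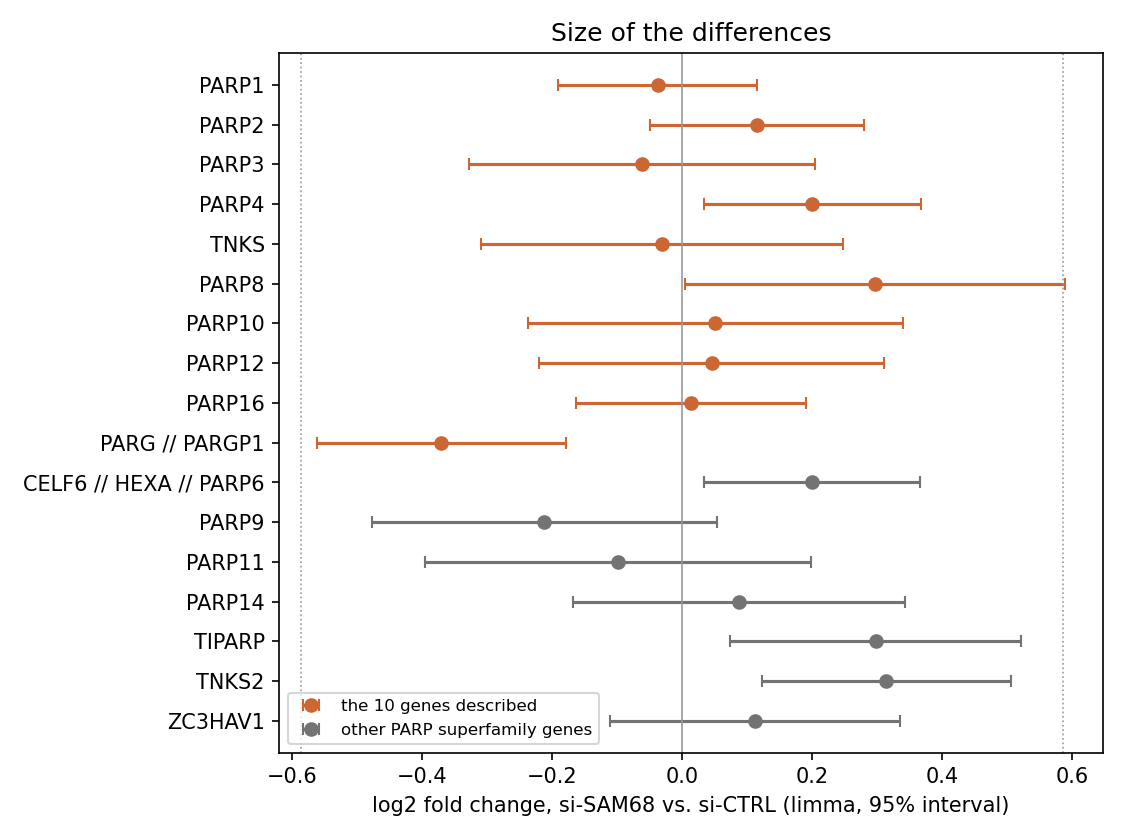
Log2 fold change of si-SAM68 against si-CTRL (x axis) with 95% intervals from limma for the 10 genes (orange) and 7 other loci of the PARP superfamily (grey, that of PARP6 joint with CELF6 and HEXA); dotted lines mark a 1.5-fold change in either direction. The intervals of PARG, PARP4 and PARP8 among the 10 genes leave out 0, and the point estimates all lie within the dotted lines.

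PARG was counted on a locus that joins PARG and its pseudogene PARGP1 (chr10:51026321-51729973, hg19). The locus measured 2192, 2104 and 2148 in si-CTRL and 1535, 1658 and 1803 in si-SAM68. The highest si-SAM68 library lay below the lowest si-CTRL library. The log2 fold change was −0.37 (SE 0.086, 95% interval −0.56 to −0.18, adjusted p = 0.0249 by limma), which corresponds to 67.8 to 88.4% of the si-CTRL level. On the recovered reads the adjusted p was 0.022 by edgeR and 0.0031 by DESeq2, and with the replicate number as a block in limma it was 0.0428.

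The call of PARG was lost in most of the fits that left out a library, and with eBayes without trend (limma, adjusted p = 0.0742). Its direction was kept in all of these fits. The log2 fold change lay between −0.43 and −0.31 in the 6 fits that left out a library, and the adjusted p stayed under 0.05 in 2 of them. It was 0.0527 without si-CTRL replicate 2, 0.0715 without si-CTRL replicate 3, 0.0855 once si-SAM68 replicate 1 was left out and 0.1 for si-SAM68 replicate 2.

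Relative to PARP1 in the same library, counts of the joint PARG locus were 0.123, 0.126 and 0.129 in si-CTRL and 0.0915, 0.1 and 0.11 in si-SAM68. This ratio of the joint locus to PARP1 was lower in every si-SAM68 library (exact permutation p = 0.1, two-sided, the smallest possible). The joint locus already lay apart in these same data while PARP1 changed little, so that this ratio is no separate support.

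PARG and PARGP1 cannot be told apart in these counts, which give a single value for the joint locus. In the longest PARG transcript (4128 bases), 660 of the 4029 windows of 100 bases (16.4%) were identical to a stretch of a PARGP1 transcript. The locus also overlapped 6 other tested loci, whereas the other 9 genes overlapped none. Whether strand was used in counting is not given in the sources used here, so that reads may be shared between overlapping loci.

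Among the overlapping loci, TIMM23B, a subunit gene of the mitochondrial import machinery, measured 860, 653 and 604 in si-CTRL and 588, 546 and 533 in si-SAM68 (log2 fold change −0.33, adjusted p = 0.154). A locus without a symbol (chr10:51623417-51707540) measured 837, 929 and 861 against 720, 639 and 728 (log2 fold change −0.33, adjusted p = 0.0573). In both the si-SAM68 libraries lay below all si-CTRL libraries. NCOA4, a receptor for ferritin turnover, and TIMM23, a subunit of the same import machinery as TIMM23B, also overlap the PARG locus, with log2 fold changes of −0.07 and −0.05.

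The RefSeq start of PARG lies 6 bases from the GENCODE 29 start of TIMM23B on the opposite strand (both GRCh38), and their counts stood in a ratio of 3.11 ± 0.513 (SD, n = 3) for si-CTRL and 3.01 ± 0.388 for si-SAM68 (exact permutation p = 0.8, two-sided). Whether the lower PARG count comes from PARG, from PARGP1 or from reads shared with these neighbours was not tested.

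**Figure D4:**
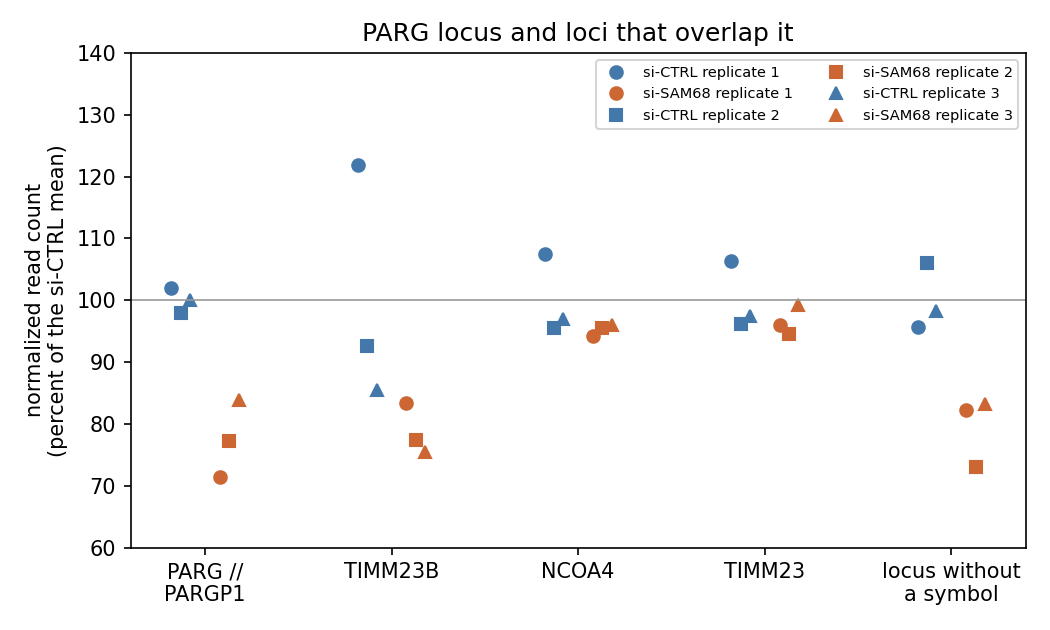
Normalized read count in each library, as percent of the si-CTRL mean (y axis, not starting at 0), for the PARG locus and the 4 overlapping loci with a si-CTRL mean above 100; colours give the group and marker shapes the replicate number. The si-SAM68 libraries lie below all si-CTRL libraries for PARG, TIMM23B and the locus without a symbol, but not for NCOA4 and TIMM23.

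Promoter sequences from 250 bases before to 50 after the start were taken from the RefSeq table (GRCh38.p14) and were searched for 7 of the genes. PARP4 had no entry there. That of PARG is shown because the start of TIMM23B lies within it, and that of PARP12 because the gene is interferon-induced. Capitals mark matches, on either strand, to CCAAT, to the GC box GGGCGG or to GAAANNGAA, a part of the interferon-stimulated response element.
PARG promoter (GRCh38.p14, chr10:49941978-49942277, minus strand): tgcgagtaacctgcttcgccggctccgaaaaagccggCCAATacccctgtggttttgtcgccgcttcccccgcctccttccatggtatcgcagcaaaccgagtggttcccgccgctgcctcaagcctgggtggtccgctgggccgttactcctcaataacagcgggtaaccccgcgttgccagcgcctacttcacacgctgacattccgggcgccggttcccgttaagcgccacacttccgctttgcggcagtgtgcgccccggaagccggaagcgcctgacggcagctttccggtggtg
PARP12 promoter (GRCh38.p14, chr7:140062902-140063201, minus strand): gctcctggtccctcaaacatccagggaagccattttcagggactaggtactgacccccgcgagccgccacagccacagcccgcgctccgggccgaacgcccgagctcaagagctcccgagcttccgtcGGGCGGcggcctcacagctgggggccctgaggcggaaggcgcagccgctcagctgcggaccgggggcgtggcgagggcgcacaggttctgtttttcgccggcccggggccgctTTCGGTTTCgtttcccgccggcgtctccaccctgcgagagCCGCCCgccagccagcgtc
The PARG promoter held 1 CCAAT and no GC box, and CCAAT is found in 34.6% of the 34796 promoters of the table. The PARP12 promoter held 1 match to GAAANNGAA, which 8.11% of promoters have, and 2 GC boxes, which 44.9% have. In the PARG and PARP12 promoters the matches do not overlap one another. GC boxes numbered 2 in the PARP1 promoter, 3 in that of PARP16 and 1 in that of PARP2, and the PARP3 promoter held no match. PARP8 has 3 promoters in the table, of which 1 held 4 GC boxes (some overlapping), 1 held a CCAAT and 1 held neither. The promoters of PARP10 and TNKS were not searched here. A match describes the letters of the window and not the binding of a factor.

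The other genes around ADP-ribosylation were followed as lists. Their counts by adjusted p are to be read beside the 10.7% of all loci called (6.23% lower and 4.47% higher). None of the calls named in these lists held with eBayes without trend. In the rest of the PARP superfamily, 6 genes were tested on a locus of their own, and TNKS2 alone had an adjusted p under 0.05. It was also the only one whose groups did not overlap (1 of 6, beside 33.9% of all loci), and the median log2 fold change of the 6 was 0.10. The locus of PARP6 joins CELF6 and HEXA and gives no value for PARP6 itself. PARP15 was at or near 0 in all libraries. Further list genes were counted on joint loci without a call, namely OARD1 with UNC5CL, APLF with PROKR1, BABAM1 with ANKLE1 and IRF9 with RNF31. The same holds for NADSYN1 with MIR6754, CASC3 with MIR6866 and AMOTL2 with MIR6827.

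The partners and removers of ADP-ribose include HPF1, which directs PARP1 to serine residues, and the hydrolases of the ARH and macrodomain families. Of these 16 genes, 0 had an adjusted p under 0.05 by limma, 0 by edgeR and 0 by DESeq2. Without si-CTRL replicate 1 the count by limma was 1, in a fit that called 2839 loci. In the main fit, 1 of 16 had an unadjusted p under 0.05, beside 27% of all loci. This was ADPRH, which removes ADP-ribose from arginine, with 354, 372 and 368 in si-CTRL and 424, 454 and 476 in si-SAM68 (log2 fold change 0.31, adjusted p = 0.0902). The median of the list was 0.004. The joint locus of PARG and PARGP1, which is not in this list, had a call, but a difference between it and the hydrolases of this list was not tested.

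Of 22 genes of strand break and base excision repair, the pathway that PARP1 serves, 2 were lower with an adjusted p under 0.05 and 0 were higher, a share close to that of all loci (10.7%), and the median log2 fold change was −0.04. TDP1, which frees DNA ends from trapped topoisomerase, measured 3568, 2941 and 2968 in si-CTRL and 2257, 2233 and 2332 in si-SAM68 (log2 fold change −0.47, SE 0.092, adjusted p = 0.0131). FEN1, the flap endonuclease, measured 13698, 14361 and 14467 in si-CTRL and 12371, 11559 and 11519 in si-SAM68 (log2 fold change −0.26, SE 0.070, adjusted p = 0.0421). The calls held in 3 of 6 fits without a library for TDP1 and in 1 of 6 for FEN1. The call of FEN1 was also lost with the replicate block (adjusted p = 0.0700) and without a minimum mean (0.0742).

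Of 13 genes of NAD synthesis, 10 were tested, and 1 had an adjusted p under 0.05, a share close to that of all loci (10.7%). NMNAT2, which makes NAD outside the nucleus, measured 745, 897 and 820 in si-CTRL and 577, 680 and 617 in si-SAM68 (log2 fold change −0.39, adjusted p = 0.0463), and the call held in 1 of 6 fits without a library. It was also lost without a minimum mean (adjusted p = 0.0682) and after quantile normalization (0.0589). The median of the 10 was −0.10.

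Of 14 targets and partners of the tankyrases, 1 had an adjusted p under 0.05, a share no larger than that of all loci (10.7%). LNPEP, an aminopeptidase that binds tankyrase, measured 3456, 3805 and 3830 in si-CTRL and 4295, 5870 and 5090 in si-SAM68 (log2 fold change 0.45, adjusted p = 0.0322), with the call in 2 of 6 fits without a library. The median of the 14 was −0.11.

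Of 24 interferon-induced genes, the class to which PARP12 belongs, 21 were tested and 3 had an adjusted p under 0.05, all lower in si-SAM68, beside 6.23% of all loci called lower and 10.7% called in either direction. Of the 21, 16 had a negative and 5 a positive log2 fold change, the latter with IFIT1 (0.11) and IFIH1 (0.22) among them. The si-CTRL libraries spread widely for some of the list, as for IFI6 (2120, 3612 and 6809). No test set this list against other loci. MX1, an antiviral GTPase, measured 6403, 4580 and 6565 in si-CTRL and 3135, 4017 and 3551 in si-SAM68 (log2 fold change −0.70, adjusted p = 0.0147). MX2, its paralog, measured 965, 670 and 1042 against 460, 613 and 554 (log2 fold change −0.70, adjusted p = 0.0296). STAT2, which carries the interferon signal to the nucleus, measured 789, 654 and 761 against 586, 524 and 555 (log2 fold change −0.40, adjusted p = 0.0421).

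The calls held in 4, 3 and 2 of 6 fits without a library for MX1, MX2 and STAT2. The call of MX2 was lost with the replicate block (adjusted p = 0.0521), and that of STAT2 without a minimum mean (0.0619) and after quantile normalization (0.0553). By the 1.5-fold thresholds of the paper 2 of the 21 (MX1 and MX2) were called, beside 7.67% of all loci. The median of the list was −0.24, while PARP12 (0.05) lay above it, and a difference between PARP12 and the list was not tested. OAS1, OAS2 and OAS3 were not analysed here.

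**Figure D5:**
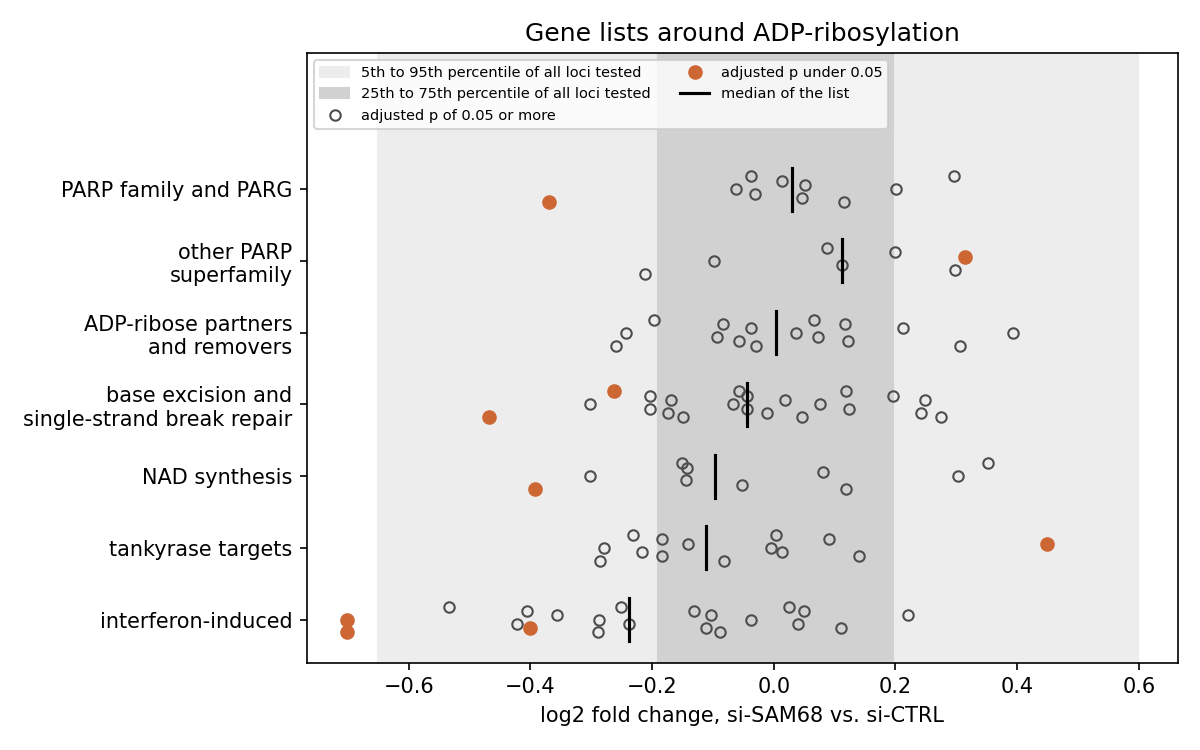
Log2 fold change of si-SAM68 against si-CTRL (x axis) for the tested genes of each list; filled points have an adjusted p under 0.05, black lines are list medians and grey bands hold the middle 50% and 90% of all loci tested. List medians run from −0.24 for interferon-induced genes to 0.11 for the other PARP superfamily loci (with the joint PARP6 locus), against 0.005 for all loci.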

How the data were processed

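RNA of MDA-MB-231 cells (3 si-CTRL and 3 si-SAM68 libraries, grouped by the labels) was sequenced by the authors as 100-bp single-end reads of polyadenylated RNA. The labels give a stranded mRNA kit, and medium and extraction kit differ between labels and paper. The authors deposited a signal per locus and library, namely reads per locus of FAST DB v2016_1 (hg19) divided by the DESeq2 size factor of the library. The submitters' processing notes name STAR 2.4.0, SAMtools, Picard, FastQC and DESeq2. The counting program is not given in the sources used here. Non-zero values of each library were whole multiples of a step (100% within 0.02 of a whole number), and the reads so recovered were used in edgeR 4.0.16 and DESeq2 1.42.0 as alternatives.

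Groups were compared with limma 3.58.1 (eBayes with trend, R 4.3.3) on log2(normalized read count + 1), which understates changes of low genes. The 18849 loci whose mean was 10 or more were tested, with Benjamini-Hochberg adjustment over all of them. Intervals are 95% intervals of limma, and exact permutation tests over libraries used scipy 1.17.1. Lengths, transcripts and neighbours came from GENCODE 29 (GRCh38). Protein sequences were not used here. The program was tested on simulated counts. Replicates differed by more than sampling noise and were kept as separate libraries. The precision is limited by 3 libraries per group.

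The members and lists were chosen with earlier results of these data known. Genes named are KHDRBS1, the 10 members, the cell markers and, per list, up to 4 genes of largest change with an adjusted p under 0.05 and no overlap between groups, or else the gene of smallest p; overlapping and neighbouring loci were named for their position. Correlations between the deviations of libraries of equal number were 0.105, 0.231 and 0.125, and −0.125 to 0.007 for unequal numbers, so that every same-number pair was above 0.1. Deviations from a group mean cancel out within the group, so that values for equal and unequal numbers are not independent of each other. Any pairing by number is read from the data, since the labels only number the replicates. The tests, intervals and exact permutation tests reported are unpaired, as the methods of the paper name no such term, and the replicate block is an alternative. Alternatives were pseudocounts of 0.1 and 5, no minimum mean or one of 50, TMM factors, quantile normalization, eBayes without trend, a replicate block, each library left out, edgeR and DESeq2. edgeR with the replicate block was added after seeing the data.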

Additional observations from a re-analysis of the deposited data

How the results depend on the processing

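The count of the 10 genes past the 1.5-fold thresholds was 0 under every alternative run. The count with an adjusted p under 0.05 was 1 except with eBayes without trend, where it was 0 (PARG adjusted p = 0.0742) and 899 loci were called in place of 2017, and except in fits that left out a library, where it ranged from 0 to 2 and the loci called from 625 to 2839. Without si-CTRL replicate 1 the 2 genes were PARG and PARP4. Without a minimum mean 2240 loci passed the 1.5-fold thresholds, against 1445 in the main fit. In the main fit 428 loci passed when a 2-fold change was asked for. The number of the 10 genes whose groups did not overlap lay between 3 and 5 with a library left out, where fewer libraries have to be apart. The share of all loci was not computed with a library left out, so that these counts have no background to be read beside. With the replicate block, 1 of the 10 genes (PARG, adjusted p = 0.0428) and 1697 loci had an adjusted p under 0.05, and 1514 loci passed the 1.5-fold thresholds; by edgeR with the replicate block PARG had an adjusted p of 0.0395. The block changed no call among the 10 genes. The log2 fold change of TNKS was 0.0020 after quantile normalization. With a library left out, it ranged from −0.17 to 0.029 for PARP3, −0.077 to 0.20 for PARP10, −0.062 to 0.16 for PARP12, −0.0082 to 0.047 for PARP16 and −0.13 to 0.076 for TNKS. Why these values moved was not tested. PARG, PARP1, PARP2, PARP4 and PARP8 kept their sign in the 18 fits. PARP8 had the fewest reads of the 10 genes, and 3 libraries per group limit the precision.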
